A study of Mus musculus with 12 samples.

Results

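The serum amyloid A family comprised 4 genes of the deposited mouse liver table, Saa1, Saa2, Saa3 and Saa4, taken by gene symbol out of 23284 genes. Livers came from DKO mice, which lacked both Apoa1 and Apoe (genotype Apoa1-/- Apoe-/-), and from DKO/hA1 mice, which carried the same 2 knockouts and expressed human APOA1 in addition. Mice of each genotype ate standard laboratory chow or were kept on Western diet, which is high in fat, over 22 weeks. The 7 DKO livers divided into 4 on chow and 3 on Western diet, and the 5 DKO/hA1 livers into 2 on chow and 3 on Western diet, 12 in all. Both genotypes thus shared the loss of the main mouse apolipoproteins of HDL and of remnant lipoproteins, and mice with intact Apoa1 or Apoe were not analysed here. The promoter that drives the human gene, and the age and sex of the mice, are not given in the sources used here. The labels give one RNA sample per library and do not say whether animals were pooled, so p-values measure the spread between these samples.

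Serum amyloid A proteins are small secreted apolipoproteins that bind to HDL and can displace apolipoprotein A-I from it. Saa1 and Saa2 encode the acute-phase forms, which hepatocytes release in response to interleukin-1, interleukin-6 and tumour necrosis factor through NF-κB, C/EBP and STAT3. Saa3 encodes an inducible form made mainly outside the hepatocyte, by macrophages and adipocytes among others. Saa4 encodes the constitutive form, which is normally present on HDL without an inflammatory stimulus.

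The targeted genes could check only the human APOA1 label, since all livers carried both knockouts. Apoa1 was 30.4 to 77.4 FPKM (fragments scaled to transcript length and to the library's mapped fragments) in the 7 DKO livers and 122.0 to 239.8 FPKM in the 5 DKO/hA1 livers, without overlap. Apoe was 25.7 to 89.8 FPKM in DKO and 12.9 to 53.2 FPKM in DKO/hA1. A value per gene does not say which part of a targeted gene was read, nor whether mouse or human APOA1 transcripts were counted. FPKM totals ran from 379689 to 578927 per library, and 10298 to 11005 genes reached 1 FPKM. Read counts were not used here. Steps between the lowest values gave a depth of 0.518 to 1.3 relative to DKO chow sample 1, but only 5.78% to 18.7% of low-value genes lay on a common step, so these depths are rough. All 10 hepatocyte markers were present in every group, with a summed level of 12010.2 to 17106.8 FPKM.

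The 4 genes lay together on chromosome 7 within 42.3 kb of the mouse assembly GRCm38 (GENCODE M21). Saa3 occupied chr7:46711998-46715700 on the minus strand and Saa4 chr7:46727998-46732603 on the minus strand. The pseudogene Saa-ps lay next, at chr7:46734787-46736671. Saa1 occupied chr7:46740497-46742980 on the minus strand and Saa2 chr7:46751790-46754313 on the plus strand, so that the acute-phase pair stood head to head, 8809 bases apart. Each of the 4 genes had 4 exons. RefSeq lists Saa2 as a synonym of Saa1 and Saa1 as a synonym of Saa2, and the annotation behind the deposited symbols is not given in the sources used here. Which of the pair is which therefore rests on the symbols in the table.

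The promoters are shown because the members differed in how far they moved with diet while lying side by side. Each covers the 300 bases from 250 before to 50 after an annotated start (RefSeq, GRCm38.p6), written 5′ to 3′ on the gene's own strand. The RefSeq records of Saa1 and Saa3 reach further upstream than the starts used, to chr7:46743181 and chr7:46719615. Saa1 lies at chr7:46742931-46743230 (minus), Saa2 at chr7:46751583-46751882 (plus), Saa3 at chr7:46715627-46715926 (minus) and Saa4 at chr7:46732554-46732853 (minus). Capitals mark matches on either strand to TTNNGNAA (a C/EBP motif) and to the 10-letter NF-κB consensus.
Saa1: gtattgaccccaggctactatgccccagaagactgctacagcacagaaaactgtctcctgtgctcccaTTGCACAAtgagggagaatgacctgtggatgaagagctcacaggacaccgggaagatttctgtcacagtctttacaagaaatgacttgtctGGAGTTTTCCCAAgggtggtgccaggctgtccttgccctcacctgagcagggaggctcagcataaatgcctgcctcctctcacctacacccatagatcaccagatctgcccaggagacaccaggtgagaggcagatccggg
Saa2: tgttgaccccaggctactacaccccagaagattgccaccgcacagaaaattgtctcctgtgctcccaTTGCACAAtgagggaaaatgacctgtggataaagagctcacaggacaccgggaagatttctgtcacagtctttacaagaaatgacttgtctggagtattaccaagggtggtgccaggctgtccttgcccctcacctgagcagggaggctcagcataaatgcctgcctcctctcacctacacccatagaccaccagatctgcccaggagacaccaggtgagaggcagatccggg
Saa3: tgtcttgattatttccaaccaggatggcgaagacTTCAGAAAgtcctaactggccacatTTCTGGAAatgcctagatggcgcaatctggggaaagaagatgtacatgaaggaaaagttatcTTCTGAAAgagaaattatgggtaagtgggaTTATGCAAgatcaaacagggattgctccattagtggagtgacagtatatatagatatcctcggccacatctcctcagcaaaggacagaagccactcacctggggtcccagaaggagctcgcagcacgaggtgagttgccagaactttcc
Saa4: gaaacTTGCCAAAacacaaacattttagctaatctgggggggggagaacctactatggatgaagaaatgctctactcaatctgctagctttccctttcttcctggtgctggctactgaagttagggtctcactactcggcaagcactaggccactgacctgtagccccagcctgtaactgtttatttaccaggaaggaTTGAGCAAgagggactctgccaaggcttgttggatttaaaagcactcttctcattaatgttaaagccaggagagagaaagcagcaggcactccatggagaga
Saa1 held 2 C/EBP matches, beginning 182 and 86 bases before the start, and the family's 1 NF-κB match, beginning 91 bases before it. The nearer C/EBP match and the NF-κB match overlapped, so they form a single run of capitals. Saa2 held 1 C/EBP match, 183 bases before the start. Saa3 held 4 C/EBP matches and Saa4 held 2. The STAT motif TTCNNNGAA was in none of the 4 windows. Of 32851 mouse promoters of the same length, 40.7% held the C/EBP motif, 11.2% the NF-κB consensus and 8.3% the STAT motif. A match describes letters in this window only, and no link between the matches and the diet differences was tested.

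The Saa1 and Saa2 promoters were 95.3% identical (287 of 301 aligned positions), whereas the other pairs were 48.1% to 54.2% identical. The coding sequences behaved alike: Saa1 and Saa2 shared 95.1% of aligned positions, Saa1 and Saa3 77.0%, and Saa4 shared 65.9% to 67.3% with each of the others. Of all 36-base stretches of the Saa1 transcript, 21.3% also occurred in Saa2, and of 75-base stretches 4.67% did. The read length is not given in the sources used here. Reads from such stretches cannot be placed on one gene, so the split between Saa1 and Saa2 is less certain than their sum. Saa4 shared no 36-base stretch with the other 3 genes, and Saa3 shared 4.42% of its 36-base stretches with Saa1 and 1.15% with Saa2.

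Saa1, the first of the hepatocyte acute-phase pair, was 240.4, 253.4, 74.28 and 97.28 FPKM in DKO chow samples 1 to 4. On Western diet the 3 DKO livers held 3692.7, 32500.6 and 15422.5 FPKM. DKO/hA1 livers held 99.68 and 571.2 FPKM on chow and 519.3, 1191.8 and 28272.1 FPKM on Western diet. Every DKO Western diet liver was thus above every chow liver of either genotype. In DKO/hA1 only Western diet sample 3 stood at the DKO Western diet levels, while Western diet sample 1 lay below the higher chow sample. Group means were 166.3 ± 93.7 (SD, n = 4) in DKO chow, 17205.3 ± 14486.4 (n = 3) in DKO Western diet, 335.4 ± 333.4 (n = 2) for DKO/hA1 on chow and 9994.4 ± 15832.5 (n = 3) for DKO/hA1 on Western diet. In that order from highest to lowest (DKO Western, DKO/hA1 Western, DKO/hA1 chow, DKO chow), each neighbouring pair of groups overlapped.

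Saa2, the second acute-phase gene, was 112.2, 147.8, 55.14 and 69.74 FPKM in DKO chow and 4020.8, 42633.6 and 21994.1 FPKM in DKO Western diet. In DKO/hA1 it was 85.8 and 599.0 FPKM on chow and 446.1, 1051.4 and 36968.1 FPKM on Western diet. The 12 livers stood in the same order for Saa2 as for Saa1. Saa2 had the highest FPKM of all 23284 genes in DKO Western diet sample 2 and in DKO/hA1 Western diet sample 3, where Saa1 was second. Ranks are among the values as listed. Alb was listed at 0 in all livers outside the DKO Western diet group, where it was 13185.6, 8424.3 and 23644.7 FPKM, and Trf at 0 in all DKO/hA1 Western diet livers. An exact 0 in such a table can be a failed estimate, so the rank in DKO/hA1 Western diet sample 3 is less certain. Several Mup genes were also listed at 0 throughout a group, so ranks in other livers can be affected too. In DKO Western diet sample 3 Saa2 ranked 2 and Saa1 ranked 3. In DKO chow sample 3, by contrast, Saa1 ranked 823. From the lowest to the highest liver, Saa1 differed 437.5-fold and Saa2 773.2-fold.

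Saa3, the form made mainly outside hepatocytes, was 16.48, 30.36, 16.18 and 18.42 FPKM in DKO chow and 40.86, 82.92 and 55.21 FPKM in DKO Western diet. In DKO/hA1 it was 14.31 and 27.82 FPKM on chow and 74.07, 88.15 and 95.65 FPKM on Western diet. All 6 Western diet livers were above all 6 chow livers, a pattern shared by 2.51% of the 11546 genes tested. The group means were 20.4 ± 6.74 (n = 4), 59.7 ± 21.4 (n = 3), 21.1 ± 9.55 (n = 2) and 86.0 ± 11.0 (n = 3) FPKM in the same order of groups (DKO chow, DKO Western, DKO/hA1 chow, DKO/hA1 Western). The 2 Western diet groups overlapped with each other and so did the 2 chow groups. The 3 DKO/hA1 Western diet livers, which differed 54.4-fold in Saa1, differed 1.29-fold in Saa3.

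Saa4, the constitutive form, was 186.4, 176.9, 115.5 and 104.5 FPKM in DKO chow and 275.5, 548.9 and 471.7 FPKM in DKO Western diet. In DKO/hA1 it was 78.48 and 103.1 FPKM on chow and 189.4, 290.8 and 383.0 FPKM on Western diet. All 6 Western diet livers were again above all 6 chow livers, though the gap between 186.4 and 189.4 FPKM was small. Both DKO/hA1 chow livers lay just below the lowest DKO chow liver (103.1 against 104.5 FPKM). The group means were 145.8 ± 41.8 (n = 4), 432.0 ± 141.0 (n = 3), 90.8 ± 17.4 (n = 2) and 287.7 ± 96.8 (n = 3) FPKM in the same group order. From lowest to highest liver Saa4 differed 6.99-fold, close to the 6.68-fold of Saa3.

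**Figure D1:**
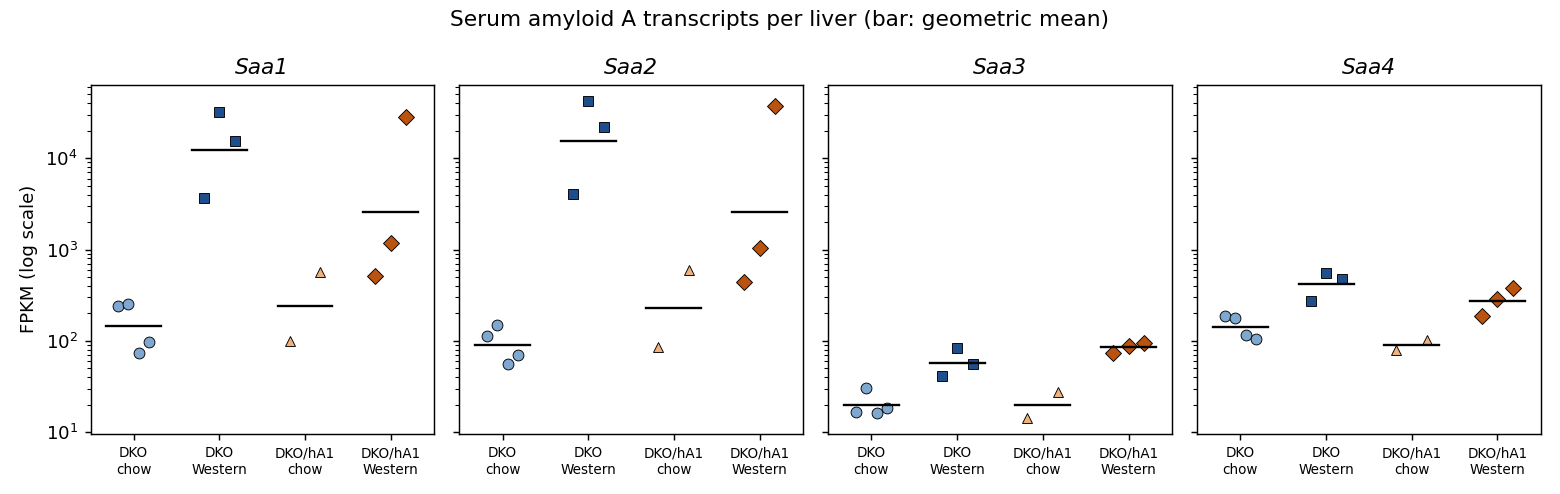
FPKM of Saa1, Saa2, Saa3 and Saa4 in each of the 12 livers on a shared log axis, by group, with a bar at the geometric mean. Among the 3 DKO/hA1 Western diet livers Saa1 differs 54.4-fold and Saa2 82.9-fold, whereas Saa3 differs 1.29-fold and Saa4 2.02-fold.

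FPKM are per length, so levels of the 4 genes can be set side by side. In DKO chow livers Saa4 was as high as Saa1: the Saa1 to Saa4 ratio was 0.643 to 1.43. In DKO Western diet livers that ratio was 13.4 to 59.2, and in DKO/hA1 it was 1.27 to 5.54 on chow and 2.74 to 73.8 on Western diet. Saa1 thus exceeded Saa4 in every liver outside the DKO chow group. The Saa1 to Saa3 ratio was 4.59 to 14.6 in DKO chow, 6.96 to 20.5 in DKO/hA1 chow and 90.4 to 392 in DKO Western diet. In DKO/hA1 Western diet it was 7.01, 13.5 and 296, so samples 1 and 2 stayed within the range of the chow livers. These ratios describe the levels and were not tested.

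Saa1 and Saa2 together held 0.0311% to 0.097% of the FPKM total in DKO chow and 1.75%, 13.6% and 7.12% in DKO Western diet. In DKO/hA1 they held 0.0483% and 0.278% on chow and 0.227%, 0.592% and 13.5% on Western diet. Saa3 and Saa4 together never passed 0.115%. These shares leave out 22 genes, such as Alb, that are listed at 0 throughout at least 1 group and at 1 FPKM or more throughout another. Leaving them out raises the shares in livers where these genes have values. As FPKM are scaled to a library's mapped fragments, a transcript with a large share can lower the values of other genes. The comparisons below therefore use FPKM rescaled by a trimmed mean over genes. The rescaling factor was 1.0127 in DKO Western diet sample 2 and 0.9947 in DKO/hA1 Western diet sample 3, which held the largest shares.

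Diet in DKO mice was compared first. All 4 members had every Western diet liver above every chow liver, as did 10.5% of the genes tested. On the scale of log2(rescaled FPKM + 1), which understates the change of low genes, Saa1 differed by 6.32 ± 1.31 (SE; 95% interval 3.41 to 9.24) and Saa2 by 7.36 ± 1.41 (4.21 to 10.50). Saa3 differed by 1.42 ± 0.31 (0.75 to 2.10) and Saa4 by 1.48 ± 0.32 (0.78 to 2.18). No member passed an adjusted p of 0.05 in limma (Benjamini-Hochberg over 11546 genes), the adjusted p being 0.146, 0.134, 0.146 and 0.146 for Saa1 to Saa4. Unadjusted, all 4 had a p below 0.05, as did 11.8% of genes, and only 13 genes (0.113%) passed the adjusted threshold. The fit shares its spread with the DKO/hA1 livers. Without DKO/hA1 Western diet sample 3, the liver that stood apart from its group, Saa1 (adjusted p = 0.0262) and Saa2 (adjusted p = 0.0139) passed, and fitted on the 2 DKO groups alone Saa2 passed (adjusted p = 0.0456). Saa1 passed in only 1 of 23 alternatives and Saa2 in 3 of 23. Over all alternatives the adjusted p ran from 0.0262 to 0.491 for Saa1 and from 0.0139 to 0.428 for Saa2.

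In DKO/hA1 mice Saa3 rose on Western diet, by 2.03 ± 0.37 on the log2 scale (95% interval 1.23 to 2.84, adjusted p = 0.0289 in limma), a 4.08-fold difference. Saa3 was 1 of 152 genes called (1.32%). Saa4 differed by 1.60 ± 0.38 (0.76 to 2.43, adjusted p = 0.0688). For Saa3 and Saa4 every Western diet liver was above both chow livers, as for 15.6% of genes. Saa1 and Saa2 overlapped between diets, with differences of 3.43 ± 1.56 (-0.06 to 6.91, adjusted p = 0.375) and 3.49 ± 1.69 (-0.27 to 7.25, adjusted p = 0.407). Without DKO/hA1 Western diet sample 3 these were 1.70 for Saa1 and 1.57 for Saa2, and without DKO/hA1 chow sample 2 they were 4.68 and 4.89. The Saa3 call was lost without DKO chow sample 1, either DKO/hA1 chow sample, or DKO/hA1 Western diet sample 2 or 3 (adjusted p 0.0505 to 0.147). It was also lost with the 2 groups fitted alone (adjusted p = 0.0932) and without both libraries highest in neutrophil markers (adjusted p = 0.0545). The Saa3 difference itself stayed between 1.57 and 2.49 in these and all other alternatives. The Saa4 difference passed without DKO/hA1 Western diet sample 1 (adjusted p = 0.0464).

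Averaged over both genotypes, all 4 members rose on Western diet, 4 of the 318 genes called higher (2.75% of genes tested). Saa2 rose by 5.43 ± 1.10 on the log2 scale (2.97 to 7.88, adjusted p = 0.0258) and Saa1 by 4.87 ± 1.02 (2.61 to 7.14, adjusted p = 0.0293), which are 42.97-fold and 29.33-fold. Saa3 rose by 1.73 ± 0.24 (1.20 to 2.25, adjusted p = 0.00607) and Saa4 by 1.54 ± 0.25 (0.99 to 2.08, adjusted p = 0.00875), which are 3.312-fold and 2.902-fold. The smaller changes of Saa3 and Saa4 came with smaller standard errors and smaller adjusted p. The median over all 11546 genes was -0.0098, with 47.8% above 0. Of the 456 genes called, 318 were higher and 138 lower; with FPKM scaled to equal totals, which moved the median of all genes to -0.1369, the split was 181 higher and 240 lower, and all 4 members still passed as higher. In bulk liver, fewer cells of a type and less RNA per cell cannot be told apart.

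**Figure D2:**
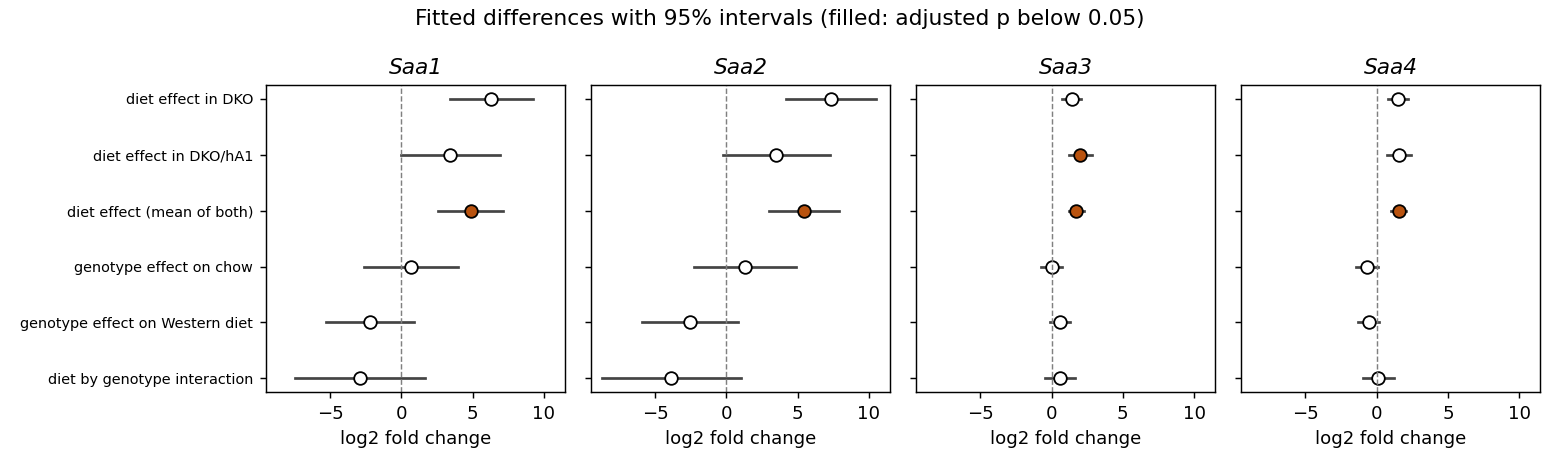
Fitted log2 differences with 95% intervals for each member, for diet in DKO, diet in DKO/hA1, their mean, genotype on chow, genotype on Western diet and the interaction; filled points passed an adjusted p of 0.05. The mean diet difference is filled for all 4 members, and every genotype and interaction interval includes 0.

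The averaged Saa3 call stood in all 22 alternatives (adjusted p 0.00284 to 0.0213) and that of Saa4 in 21, the exception being the fit without DKO/hA1 chow sample 2 (adjusted p = 0.0546). Saa2 passed in 17 of 22 and Saa1 in 15 of 22. Both lost the call without DKO chow sample 3, DKO Western diet sample 2 or 3, or either DKO/hA1 chow sample, and Saa1 also without DKO chow sample 4 (adjusted p up to 0.118 for Saa1 and 0.105 for Saa2). With the sample number as a block, Saa1 differed by 4.56 with an adjusted p of 0.0525. The direction was upward in all of these fits. Without the 2 libraries highest in neutrophil markers, which also held the 2 highest values of Saa1 and Saa2, the 4 differences were 3.66, 4.10, 1.55 and 1.31 for Saa1 to Saa4, and all 4 passed (adjusted p 0.0446, 0.0347, 0.0213 and 0.0347). That alternative was chosen after the data were seen.

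**Figure D3:**
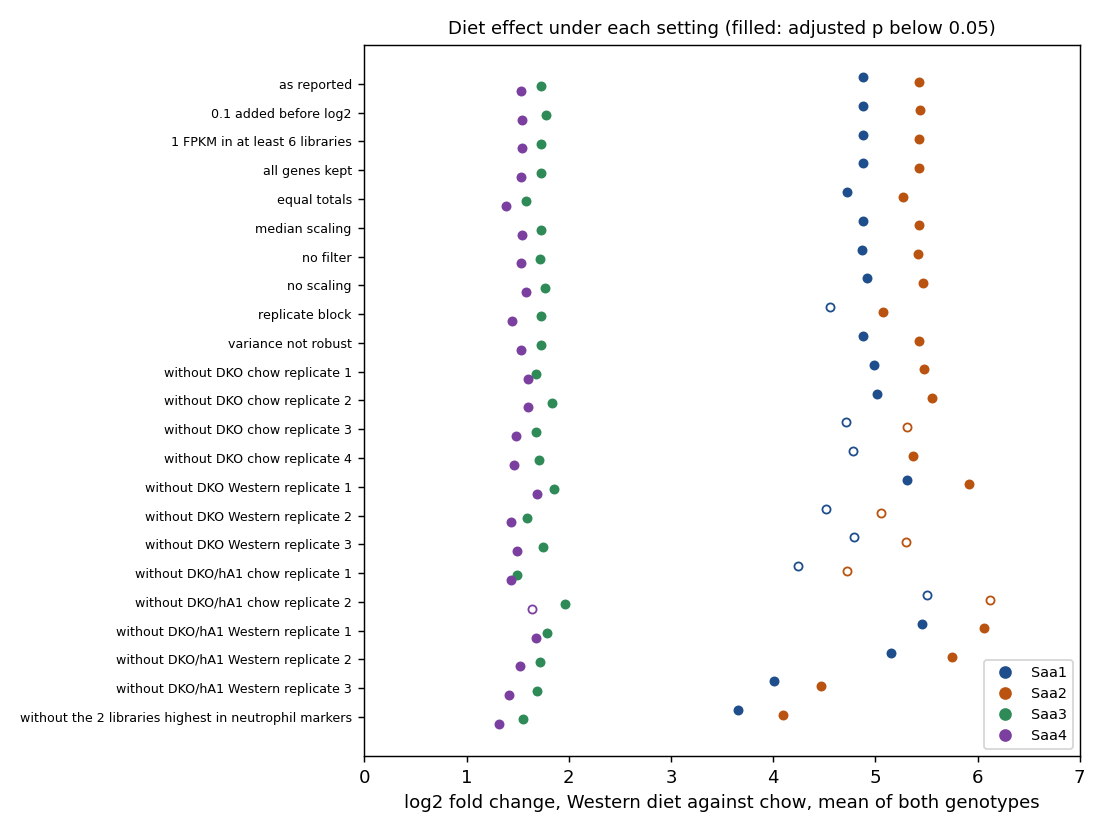
Averaged diet difference of each member on the log2 scale as reported and under each alternative; filled points passed an adjusted p of 0.05. Saa3 and Saa4 stay between 1.31 and 1.96 throughout, while Saa1 and Saa2 range from 3.66 to 6.13 and lose the call when some single libraries are left out.

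Human APOA1 was compared within each diet. On chow no member passed in limma and none had an unadjusted p below 0.05, against 9 genes called (0.0779%) and 7.43% of genes with an unadjusted p below 0.05. The differences, DKO/hA1 minus DKO, were 0.69 ± 1.48 for Saa1, 1.31 ± 1.60 for Saa2, -0.0018 ± 0.35 for Saa3 and -0.67 ± 0.36 for Saa4 (adjusted p 0.958, 0.913, 0.999 and 0.731). The 2 chow groups did not overlap for Saa4, as for 9.28% of genes in that direction. The signs for Saa1 and Saa2 turned when DKO/hA1 chow sample 2 was left out (-0.57 and -0.09), and the value for Saa3 lay too near 0 to have a sign under all scalings.

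On Western diet the genotype difference was -2.21 ± 1.40 for Saa1 (95% interval -5.32 to 0.91), -2.55 ± 1.51 for Saa2 (-5.92 to 0.81), 0.60 ± 0.33 for Saa3 (-0.12 to 1.32) and -0.55 ± 0.34 for Saa4 (-1.30 to 0.20). The groups overlapped for all 4 members. The limma adjusted p was 0.914 to 0.95, no gene of the table was called (0%), and no member had an unadjusted p below 0.05, against 5.85% of genes. The intervals for Saa1 and Saa2 span from a large reduction to a small increase, so a difference of several-fold between the genotypes was not detectable with 3 livers against 3. With DKO/hA1 Western diet sample 3 left out, the differences were -3.93 for Saa1 and -4.47 for Saa2 (adjusted p 0.484 and 0.424). With DKO/hA1 Western diet sample 1 left out they were -1.04 and -1.28 (adjusted p 0.869 and 0.844).

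Whether diet acted differently in the 2 genotypes was tested as an interaction. It was -2.90 ± 2.04 for Saa1 (-7.44 to 1.64), -3.86 ± 2.20 for Saa2 (-8.77 to 1.04), 0.61 ± 0.48 for Saa3 and 0.12 ± 0.50 for Saa4, with limma adjusted p of 0.961, 0.961, 0.961 and 0.989. Single livers moved these values: without DKO/hA1 Western diet sample 3 the interaction was -4.63 for Saa1 and -5.79 for Saa2, and without DKO/hA1 chow sample 2 it was -1.64 and -2.47. None of the 4 had an unadjusted p below 0.05, as 4.88% of genes did, and 2 genes of the table were called (0.0173%). Averaged over diets, the genotype difference of Saa4 was -0.61 ± 0.25 with an unadjusted p of 0.0314 and an adjusted p of 0.571, beside 13 genes called (0.113%) and 8.03% of genes with an unadjusted p below 0.05. That of Saa3 was 0.30 ± 0.24, and those of Saa1 and Saa2 were -0.76 ± 1.02 and -0.62 ± 1.10. The comparisons share groups with one another, so their values are not independent.

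Within a group the members spread very differently. The SD of log2 values around the group means, pooled over the 4 groups, was 1.92 for Saa1 and 2.08 for Saa2, at percentile 99.9 of 10728 genes each. It was 0.457 for Saa3 and 0.473 for Saa4, at percentiles 92.0 and 92.8, against a median of 0.196. Saa1 and Saa2 kept a close ratio despite this: Saa2 over Saa1 was 0.467 to 0.742 in DKO chow, 0.861 and 1.05 in DKO/hA1 chow, 1.09 to 1.43 in DKO Western diet and 0.859 to 1.31 in DKO/hA1 Western diet. Saa2 was below Saa1 in all 4 DKO chow livers and above it in all 3 DKO Western diet livers. The shared transcript stretches bear on this ratio, and their part in it was not tested.

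**Figure D4:**
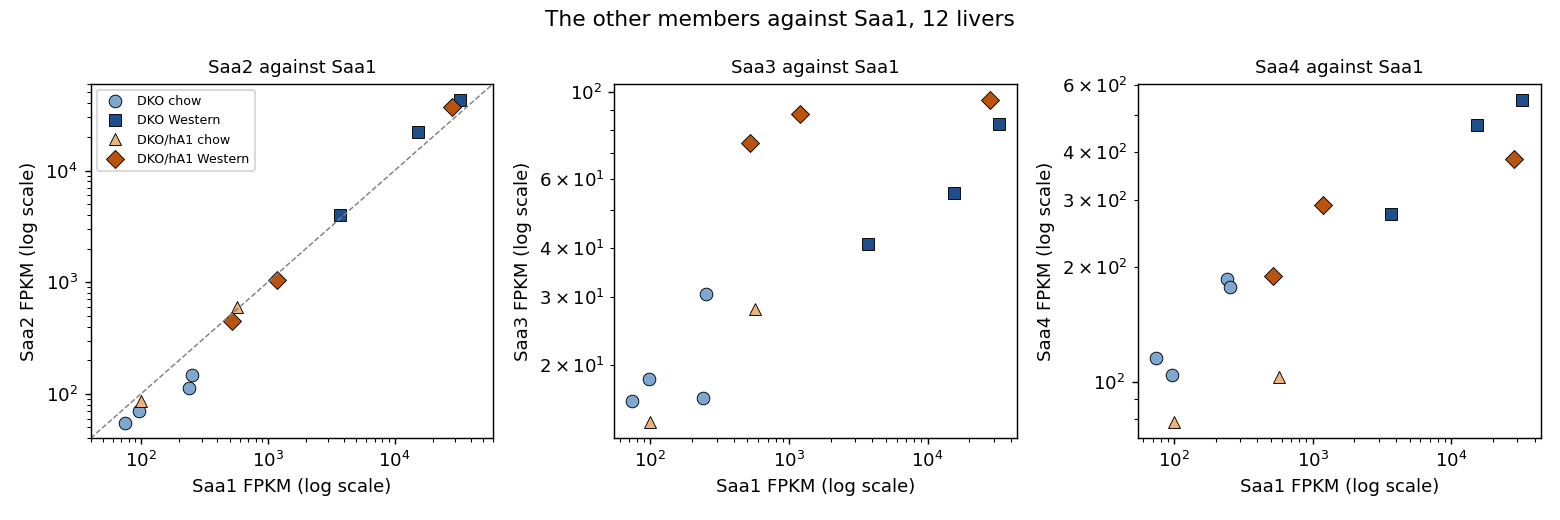
FPKM of Saa2, Saa3 and Saa4 against Saa1 in the 12 livers, all axes logarithmic; the dashed line marks equal levels. Saa2 follows Saa1 closely, whereas 2 DKO/hA1 Western diet livers combine high Saa3 with Saa1 of 519.3 and 1191.8 FPKM.

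Across the 12 livers, as a description, Pearson's r of log2 values was 0.997 between Saa1 and Saa2, 0.91 between Saa1 and Saa4, 0.804 between Saa1 and Saa3 and 0.811 between Saa3 and Saa4. Taken as deviations from the group means, r was 0.993, 0.863, 0.653 and 0.702. Saa4 over Saa3 was 5.67 to 11.3 in DKO chow, 6.62 to 8.55 in DKO Western diet, 3.71 and 5.48 in DKO/hA1 chow and 2.56 to 4.00 in DKO/hA1 Western diet. The lowest ratios were thus those of DKO/hA1 livers, all 5 of which lay below all 7 DKO livers. That pattern was noticed in the values and was not tested.

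The genes most like each member over the 12 livers were sought among 10724 genes outside the family by Pearson's r. For Saa1 they were Orm2 (0.986), Lcn2 (0.985), Prg4 (0.973), Hp (0.967) and Clu (0.966). Saa2 had Lcn2 (0.975), Orm2 (0.974), Prg4 (0.965), Hp (0.962) and Tmem176a (0.958). Orm2 encodes the plasma carrier orosomucoid, Lcn2 an iron-siderophore binding protein, Hp haptoglobin, Prg4 lubricin and Clu clusterin. Lcn2, which like Orm2, Prg4 and Hp was among the nearest of both, was 8.696 to 65.5 FPKM in DKO chow. It was 401.4, 3222.2 and 1131.8 FPKM in DKO Western diet. In DKO/hA1 Lcn2 was 9.341 and 52.77 FPKM on chow and 89.71, 231.1 and 3573.8 FPKM on Western diet, the same 3 livers being highest as for Saa1.

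Saa4 shared Orm2 (0.948) with the acute-phase pair and was otherwise nearest to Orm3 (0.964), Aim1 (0.962), Stap2 (0.959) and Slc13a3 (0.952). Saa3 had other neighbours: 1810011O10Rik (0.908), Slc39a13 (0.88), Hexa (0.879), Ifi205 (0.873) and Mpeg1 (0.869). Hexa encodes a lysosomal hexosaminidase subunit and Mpeg1 a pore-forming protein of macrophages. Within groups the r of these with Saa3 was 0.147 to 0.538, against 0.934 to 0.975 for the 5 neighbours of Saa1, so the likeness to Saa3 lay mostly between groups. Left without the 2 livers farthest from the median, r was 0.934 to 0.974 for the neighbours of Saa1 and 0.817 to 0.896 for those of Saa3.

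The other hepatocyte acute-phase genes were set beside the family from a list of 26, all tested. In DKO 24 of 26 had a positive diet difference, with a median of 1.62 against -0.0048 over all genes. None passed in limma, while 22 of 26 had an unadjusted p below 0.05, against 11.8% of all genes. In DKO/hA1 18 of 26 were positive, with a median of 0.47. None passed there and 4 of 26 had an unadjusted p below 0.05, a share near the 13.5% of all genes. Without the 2 libraries highest in neutrophil markers, of which DKO/hA1 Western diet sample 3 is in this genotype, 12 of 26 were positive in DKO/hA1 and the median was -0.0785, so the direction of that median turned. In DKO it was 1.23 without them. Averaged over genotypes, Lcn2, Orm2, Orm3 and Lrg1 rose and Hamp fell. Lcn2 rose by 4.92 ± 0.98 (adjusted p = 0.0236), Orm2 by 4.72 ± 1.01 (adjusted p = 0.0326), Orm3 by 4.15 ± 0.73 (adjusted p = 0.0158) and Lrg1 by 1.68 ± 0.41 (adjusted p = 0.0461).

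Hamp, which encodes the iron hormone hepcidin, fell on average by 1.35 ± 0.32 (adjusted p = 0.0429). This was opposite in direction to the Saa genes, although Hamp is classed with the positive acute-phase genes. By genotype, Hamp differed by -2.15 ± 0.50 in DKO/hA1 (limma adjusted p = 0.064). In DKO it differed by -0.54 ± 0.42 (adjusted p = 0.654), and there the diets overlapped. Averaged over genotypes, haptoglobin (Hp) differed by 1.54 ± 0.40 (adjusted p = 0.0608) and the protease inhibitor Serpina3n by 2.01 ± 0.55 (adjusted p = 0.072). Steap4 differed by 1.59 ± 0.50 (adjusted p = 0.11) and the pentraxins Apcs and Crp by 1.92 and 0.55 (adjusted p = 0.214 and 0.239). Lbp, which carries bacterial lipopolysaccharide, differed by 0.94 (adjusted p = 0.139). The differences of Lcn2 and Orm2 lay nearest to the 4.87 of Saa1. Over 22 alternatives the call stood in 20 for Orm3, 17 for Lcn2, 13 for Orm2, 11 for Lrg1 and 9 for Hamp, in the same direction throughout. Without the 2 libraries named above, the averaged median of the list went from 0.97 to 0.51. Hp, Lcn2 and Orm3 were then the list genes called, where 243 genes of the table were called, against 456 with all libraries. Of 8 tested negative acute-phase genes (of 10 listed), Cyp3a11 fell by 4.07 ± 0.79 (adjusted p = 0.0222) and no other passed, with a median of -0.12. Alb and Trf of that list were not tested, being listed at 0 throughout a group.

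The cytokines, receptors and factors that induce Saa genes and their inhibitors were taken as a further list. Of 22 tested genes of 25, the median averaged diet difference was 0.26, against -0.0098 over all genes. Il1rn, the interleukin-1 receptor antagonist, rose by 1.46 ± 0.34 (adjusted p = 0.0416), and Il1a, an interleukin-1 cytokine, by 0.70 ± 0.17 (adjusted p = 0.0426). Lifr, the receptor of leukaemia inhibitory factor, fell by 1.12 ± 0.18 (adjusted p = 0.00855). The Lifr call stood in 21 of 22 alternatives, that of Il1rn in 11 and that of Il1a in 8. Socs3, a feedback inhibitor of STAT3 signalling, differed by 1.47 ± 0.46 (adjusted p = 0.106), the interleukin-1 receptor Il1r1 by 1.34 ± 0.48 (adjusted p = 0.158), and the C/EBP factors Cebpd and Cebpb by 0.93 and 0.75 (adjusted p = 0.0507 and 0.106).

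Stat3 (0.15), Il6ra (0.47), Il6st (0.01), Il1b (0.38) and Nfkbia (0.14) had adjusted p of 0.229 to 0.976. With equal totals the signs of Stat3, Il6st and Nfkbia turned. Il6 itself, named after its values were seen, was listed at 0 in 9 of 12 livers and reached 0.1383 FPKM at most, in DKO/hA1 Western diet sample 3. Without the 2 libraries, Il1rn and Lifr were the genes of this list called.

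Of 7 tested genes of 8 for receptors reported to bind serum amyloid A, all had a positive averaged diet difference, with a median of 0.80. Cd36, a scavenger receptor, rose by 1.07 ± 0.17 (adjusted p = 0.00875), Scarb1, the HDL receptor SR-BI, by 0.59 ± 0.10 (adjusted p = 0.0084) and Tlr2 by 0.93 ± 0.18 (adjusted p = 0.018). Tlr4 differed by 0.56 (adjusted p = 0.094) and the formyl peptide receptor Fpr2 by 1.00 (adjusted p = 0.158). Among 15 HDL proteins and remodelling genes, the phospholipid transfer protein Pltp rose by 1.70 ± 0.25 (adjusted p = 0.00771) and the sterol exporter Abcg1 by 1.09 ± 0.18 (adjusted p = 0.0103), with Scarb1 counted in both lists. Apoa2, the remaining main HDL apolipoprotein, differed by -0.15 ± 0.21 (adjusted p = 0.736). Apoa1 was the 1 gene of that list called for genotype, 4.194-fold higher in DKO/hA1 averaged over diets (adjusted p = 0.00221).

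The genes next to the family on chromosome 7 were set beside it. Of 6 tested neighbours of 8, none passed in limma in the averaged diet comparison, 3 had an unadjusted p below 0.05 (19.6% of all genes did), and the median was 0.23. In limma Saal1, the gene adjoining Saa3, differed by 0.22 (adjusted p = 0.198), Hps5 by 0.26 (adjusted p = 0.0824) and Gtf2h1 by 0.02 (adjusted p = 0.919). The 4 members differed by 1.54 to 5.43. Saal1 was low, with group means of 0.85 to 1.36 FPKM, so the added 1 shrank its difference.

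Markers of other cells were also set beside the family. The summed level of 10 neutrophil markers was 12.9 to 23.9 FPKM in DKO chow, 23.0 and 30.8 in DKO/hA1 chow, 97.0, 948.2 and 223.8 in DKO Western diet samples 1 to 3, and 18.3, 75.7 and 879.0 in DKO/hA1 Western diet samples 1 to 3. The 3 livers with the highest sums were the 3 with the highest Saa1 and Saa2. All 9 tested neutrophil markers had positive diet differences in both genotypes, with medians of 2.62 in DKO and 1.38 in DKO/hA1, and Csf3r was called on average. Without the 2 libraries with the highest sums, 7 markers were tested, and the medians were 1.90 in DKO and 0.34 in DKO/hA1. Camp and Ltf were then called on average, where 243 genes of the table were called, against 456 with all libraries. The summed level of 14 macrophage and Kupffer cell markers was 324.8 to 753.1 FPKM in DKO chow, 1023.2 to 1353.8 in DKO Western diet, 244.7 and 612.3 in DKO/hA1 chow and 1516.1 to 2324.1 in DKO/hA1 Western diet. Between groups, as for Saa3, the Western diet groups lay above the chow groups and DKO/hA1 Western diet was highest. Within groups the order mostly differed. DKO chow sample 2 had its group's lowest sum, 324.8, but its highest Saa3, 30.36 FPKM. DKO Western diet sample 1 had its group's highest sum and lowest Saa3, and the 2 DKO/hA1 chow livers stood in opposite order. Only in DKO/hA1 Western diet did sum and Saa3 both rise from sample 1 to sample 3. In the averaged comparison 9 of 14 macrophage markers were called, against 3.95% of all genes. In DKO 0 of 14 were called (0.113% of all genes, median 0.86), and in DKO/hA1 7 of 14 (1.32%, median 2.00). Without the same 2 libraries 4 of 14 (C1qa, Cd5l, Fcgr1 and Mpeg1) were called on average, among the 243 genes called there. The averaged median went from 1.38 to 1.25.

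Of the 5 adipocyte markers, Lep, Plin1 and Retn were listed at 0 in all 12 livers and Adipoq reached 0.0768 FPKM at most. Cfd, which encodes complement factor D, made up nearly all of the adipocyte sum. It was 0.302 to 0.585 FPKM in the 6 chow livers, 15.5, 0 and 0 FPKM in DKO Western diet samples 1 to 3, and 12.5, 2.22 and 0 FPKM in DKO/hA1 Western diet samples 1 to 3. The sums of endothelial markers (12.5 to 48.6 FPKM), T and NK cell markers (1.74 to 8.9 FPKM) and intestinal markers (17.8 to 179.6 FPKM) included no called gene in the diet comparisons, and 0, 1 and 0 of the 5, 3 and 3 tested had an unadjusted p below 0.05 on average. Hepatocyte markers had a median averaged difference of -0.15, with none of 10 called and 3 with an unadjusted p below 0.05, beside 19.6% of all genes in that comparison. The part of neutrophils, macrophages or hepatocyte number in the Saa values was not tested.

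**Figure D5:**
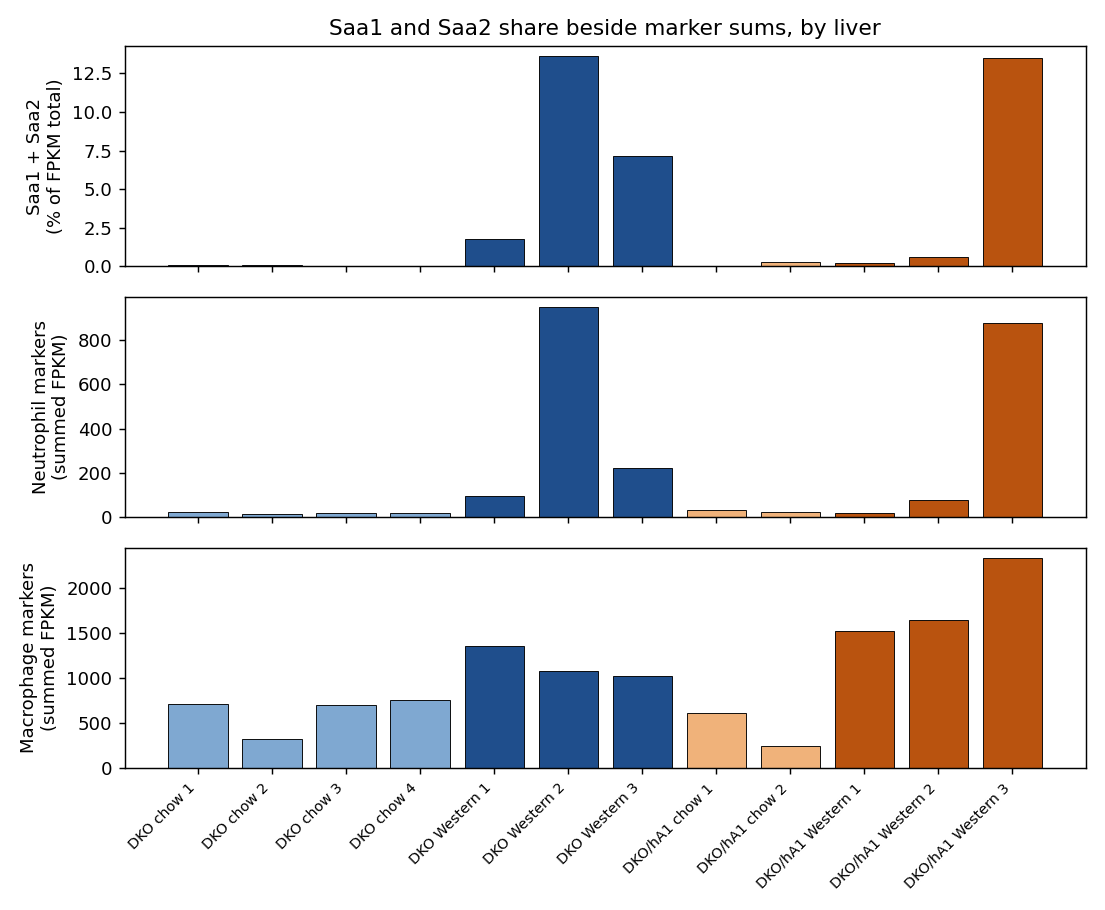
By liver: the share of Saa1 and Saa2 in the FPKM total (top), and the summed FPKM of neutrophil markers (middle) and of macrophage and Kupffer cell markers (bottom). The tallest bars in the top and middle panels are the same 2 livers, whereas macrophage markers are high in all 6 Western diet livers.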

How the data were processed

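Liver RNA of 12 libraries was prepared with an Illumina RNA-Seq kit after samples with an RNA integrity number under 7.0 were removed, per the labels. The deposited values were FPKM per gene, made by the authors with TopHat 1.3.2, Bowtie 0.12.8, SAMtools 0.1.19 and Cuffdiff on mm10, per the submitters' processing notes; the Cuffdiff version, the annotation and the read length are not given in the sources used here. The file is named for counts but holds fractional FPKM, so no count test was run.

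Genes of small RNAs (784) and 22 genes listed at 0 throughout a group but at 1 FPKM or more throughout another were left out. Genes with 1 FPKM in at least 2 libraries were kept (11546 tested, 10932 below the filter). Each library was rescaled by the trimmed, unweighted average of its log ratios to the mean library, with a trim of 0.3 for ratios and 0.05 for levels. Then 1 was added, and log2 values were fitted with limma 3.58.1 (R 4.3.3) as a linear model of the 4 groups with a trended, robust variance. P-values were two-sided and adjusted by Benjamini-Hochberg over all tested genes, with 0.05 as the threshold. The fit was tested on simulated data. FPKM carry no depth, so no counting interval is given.

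All 4 members passed the filter. The members and the gene lists were chosen with earlier results of these data known. Named genes were the members, the list genes that passed a diet or genotype comparison, a chosen set of list genes given whatever their result, and the 5 genes most like each member. Alternatives were another added value (0.1), 3 other scalings, 2 other filters, all genes kept, a variance that was not robust, only the 2 groups compared, the sample number as a block, and leaving out each of the 12 libraries. Promoters of all 4 members were matched by symbol in RefSeq (GRCm38.p6), and coordinates and transcripts came from GENCODE M21. Python 3.11.15, pandas 2.3.3, numpy 2.4.6, Biopython 1.88 and matplotlib 3.10.9 were used.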

Additional observations from a re-analysis of the deposited data

Results flagged for a closer look

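Among 40 named genes examined in the DKO chow group, the only group of 4 livers, 2 had a single liver far from the other 3. Saa3 was 30.4 FPKM in DKO chow sample 2 against 16.18 to 18.42 FPKM in the others. Crp, a pentraxin, was 172.7 FPKM in its lowest DKO chow liver. The gap to the nearest liver took 0.842 of the group's range for Saa3 and 0.957 for Crp, above Dixon's 95% critical value. Chance alone passes that value in about 5% of groups, so 2 of 40 genes is a count that chance alone can give. Groups of 3 or fewer livers were not examined in this way.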

How the results depend on the processing

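Among the 4 members, values reversed only near 0 or with 1 library left out, in genotype comparisons and in the interaction of Saa4. Over the fits without single libraries, the chow genotype difference of Saa1 ran from -0.57 to 1.95 and that of Saa2 from -0.090 to 2.71, both negative only without DKO/hA1 chow sample 2. The averaged genotype difference of Saa2 ran from -1.58 to 0.081, positive without DKO/hA1 chow sample 1 or without DKO/hA1 Western diet sample 1. The chow genotype difference of Saa3 was 0.0022 with 1 FPKM required in 6 libraries, 0.068 with equal totals, 1e-04 with median scaling, 0.023 with no scaling, and -0.46 to 0.46 without single libraries. The interaction of Saa4 ran from -0.18 to 0.40 without single libraries and was negative in 5 of those fits. The cause was not tested. Of 36 other named genes, 30 kept the direction of the averaged diet difference in all alternatives and 6, none of them called, did not. With equal totals it was -0.0926 for Apoa1, -0.116 for Gtf2h1, -0.1368 for Il6st, -0.0118 for Nfkbia and -0.0054 for Stat3. With the replicate block it was -0.0166 for Gtf2h1 and -0.0363 for Il6st. Without the 2 libraries highest in neutrophil markers it was 0.0735 for Apoa2, -0.0575 for Il6st and -0.0069 for Stat3. Without single libraries it ran from -0.0428 to 0.2028 for Apoa1, -0.0189 to 0.0739 for Gtf2h1 and -0.1365 to 0.1624 for Il6st.

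Counts of called genes moved more than the members did. For diet in DKO (13 genes) the count was 31 without the 2 libraries highest in neutrophil markers, and 8 to 72 when single libraries were left out. For diet in DKO/hA1 (152 genes; 115 higher and 37 lower) it was 69 with equal totals (39 higher and 30 lower), 11 with only the 2 groups, 85 with the replicate block, 54 without the 2 libraries, and 6 to 190 without single libraries. For the averaged diet difference (456) it was 298 with the replicate block, 243 without the 2 libraries, and 34 to 535 without single libraries, the lowest without DKO/hA1 chow sample 2. For genotype on chow (9) it was 3 with 0.1 added, 34 with all genes kept, 27 with no filter, 50 with only the 2 groups, 42 without the 2 libraries, and 2 to 33 without single libraries. For genotype on Western diet (0) it was 2 with all genes kept and 0 without any single library. For the averaged genotype difference (13) it was 7 with 0.1 added, 43 with all genes kept, 21 with equal totals, 8 with no scaling, 6 with the replicate block, 8 with a variance not robust, 8 without the 2 libraries, and 2 to 13 without single libraries. For the interaction (2) it was 28 with all genes kept, 1 with equal totals, 8 with no filter, 1 with the replicate block, and 1 to 8 without single libraries. Equal totals moved the median of all genes by more than 0.1 in 5 of the comparisons.

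The labels reuse sample numbers across groups without saying what they share. Deviations of same-numbered samples from different groups correlated from -0.284 to 0.447 (median -0.016, 15 pairs). For different numbers the range was -0.519 to 0.548 (median 0.012, 38 pairs). So few pairs cannot show whether same-numbered samples shared anything beyond the number. A further code in the labels begins alike for DKO chow sample 3 and both DKO/hA1 chow samples, and for Western diet sample 1 of both genotypes; what it marks is not given in the sources used here. Deviations of these 3 pairs correlated at 0.071, -0.071 and 0.442, and no code spans both diets, so it was not used as a block. The replicate block changed the call of Saa1 in the averaged diet comparison (4.56, adjusted p = 0.0525) and of no other member. Depth per library is unknown beyond the rough relative values.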
